A study of Mus musculus with 136 samples.

Results

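The data described here are the paired embryo and visceral yolk sac libraries of concepti with 5 or 6 somite pairs, and the measured quantity is whether the expression difference between diabetic and normal pregnancies was larger or smaller in the yolk sac than in the embryo of the same conceptus. Members were chosen by the somite number in the embryo's label, with batch-control duplicates left out, which gave 34 of the 66 concepti and 68 of the 136 samples. All mice were of the NOD strain, in which females can become diabetic spontaneously through autoimmune loss of insulin-producing cells. All were fed chow, and no drug, transgene or dietary treatment is given for either group. The diabetic group held 17 concepti from 9 litters of dams with 449 to 595 mg/dl of blood glucose at euthanasia, except that the value for 1 conceptus is given only as above the measured range. The normal group held 17 concepti from 10 litters of normoglycemic NOD dams with 105 to 164 mg/dl. All concepti were taken at E8.5. By the labels, 13 diabetic concepti had 5 and 4 had 6 somite pairs, against 11 and 6 in the normal group. The embryos were labelled male in 11 and female in 6 diabetic concepti, and male in 9 and female in 8 normal ones. Littermates share a dam, up to 4 concepti came from 1 litter, and the normal dams carry the same diabetes-prone background.

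At this stage the mouse conceptus has no working placenta. The visceral yolk sac encloses the embryo, and its endoderm takes up maternal proteins and lipoproteins, breaks them down and secretes apolipoproteins and serum proteins toward the embryo. Its mesoderm forms the blood islands. The embryo itself is closing its neural tube and forming its heart. Cells obtain cholesterol by making it from acetyl-CoA or by taking up lipoproteins, and the transcription factor encoded by Srebf2 activates genes of both routes when membrane sterol is low. An interaction value above 0 in this text means that the log2 change from normal to diabetic pregnancy had a higher value in the yolk sac than in the embryo, which includes a decrease in the embryo with no difference in the yolk sac.

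Libraries were made by a QuantSeq 3′ method with unique molecular identifiers, so values are identifier-based counts at transcript 3′ ends. Totals ran from 1226712 to 5658850 counts, with a median of 2444546. Visceral endoderm markers and Otx2 followed the tissue labels, while the ranges of the heart markers overlapped between the tissues. The 6 heart markers took 0.00186 to 0.0646% of the counts of normal yolk sacs and 0.00141 to 0.0388% of diabetic ones. Their yolk sac medians were 0.00364 and 0.00245%. In embryos they took 0.0315 to 0.103% in the normal and 0.00676 to 0.0949% in the diabetic group. The source of the high yolk sac values was not tested. The 10 visceral endoderm markers took 0.458 to 1.32% of the counts of yolk sacs and 0.00711 to 0.0782% of those of embryos, and Otx2, a forebrain regulator, had medians of 252 and 225 normalized counts in normal and diabetic embryos against 2.19 and 2.10 in the yolk sacs. In yolk sac libraries, 2 stood apart. The yolk sac of the normal conceptus N28M06A correlated with its group at 0.878 and that of the diabetic conceptus D28M02G at 0.898, over 8783 genes, where the other 66 libraries lay between 0.943 and 0.991. In conceptus D28M27C, the embryo was labelled female and had 1720 normalized counts of Xist and 2.66 of Ddx3y, and the yolk sac was labelled male and had 32.4 of Xist and 314 of Ddx3y. Thus the sex labels of these libraries matched their expression, but both tissues of this pair did not share a sex. Counts of genes without these concepti, and the sterol median without D28M27C, are given below.

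No gene passed the test of the interaction. Of 11677 genes tested by edgeR's quasi-likelihood test with the conceptus as a block, 0 were called at an adjusted p under 0.05 (0.0%), and the smallest adjusted p was 0.285. DESeq2 and limma also called 0 genes, while edgeR without the filter on low counts called 66 of 29947. At an unadjusted p under 0.05 stood 1052 genes (9.01%) by edgeR, 1018 by DESeq2 and 626 by limma with the litter as a random block. In edgeR, 599 of these were positive (5.13%) and 453 negative (3.88%). The median interaction was 0.00 on the log2 scale. The 95% interval lay within a 2-fold change in either direction for 10135 genes (86.8%) and within a 1.5-fold change for 6478 genes (55.5%). For the rest, these data do not exclude larger differences between the tissues. The intervals treat littermates as independent, so they may be too narrow for any gene. The count of 1052 rested in part on single litters. It was 559 without litter N28M06, which holds 4 of the 17 normal concepti, and 1608 without the normal litter N24M21. Leaving out only conceptus N28M06A gave 1060, and leaving out both concepti whose yolk sacs stood apart gave 1094. Without conceptus D28M27C the count was 977.

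The gene of lowest p was the gene model Gm27231, with a negative interaction that is given below. Of the 10 genes of lowest unadjusted p once Gm and Rik models were left out, 9 are described here: Mxd4, Kctd15, Cyp51, Rin1, Sall2, Rgs5, Gdpd2, Pias2 and Npas3. These 9 had a positive interaction, and none was called. In each, the fitted diabetic minus normal change was below 0 in the embryo. In 8 of them it was above 0 in the yolk sac, the exception being Cyp51. These genes and Gm27231 were chosen by their p for the interaction. Counts of concepti or litters above or below the normal median of the yolk sac minus embryo difference therefore partly restate that choice. They are no separate support, littermates are counted separately among concepti, and no such counts over all genes are given.

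**Figure D1:**
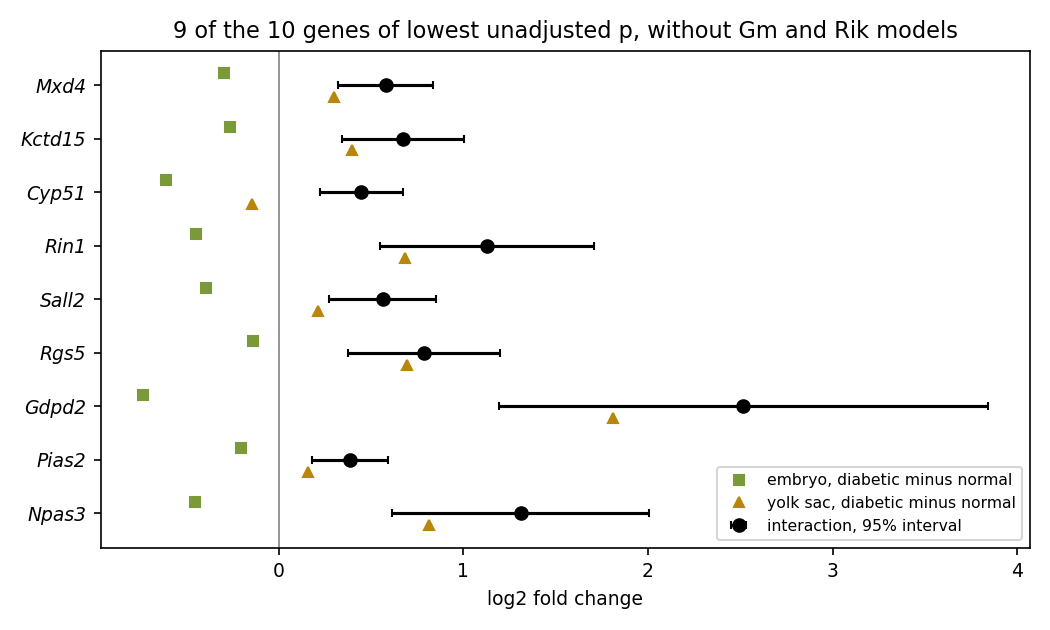
Log2 fold changes of 9 of the 10 genes of lowest unadjusted p, with Gm and Rik models left out. Black points are the interaction with its 95% interval, green squares and gold triangles the diabetic minus normal change in embryos and yolk sacs from a fit without the conceptus block. Embryo values lie between -0.73 and -0.14, and no gene passed the adjusted threshold.

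Cyp51, the lanosterol demethylase of cholesterol synthesis on chromosome 5 (GRCm38, 4081145 to 4104746), differed mainly among embryos. Its normalized counts ran from 145 to 273 with a median of 191 in normal embryos and from 92.2 to 180 with a median of 134 in diabetic embryos. In yolk sacs they ran from 92.1 to 164 with a median of 122 in the normal group and from 80.7 to 203 with a median of 110 in the diabetic group. Thus the median was lower in both tissues of diabetic pregnancies, and by more in the embryo. The interaction was 0.45 (SE 0.11, 95% interval 0.22 to 0.67, unadjusted p = 0.000251, adjusted p = 0.406), and the litter mean difference was above the normal median in 8 of 9 diabetic litters. With counts summed per litter the interaction was 0.38, with an unadjusted p of 0.0115 by edgeR.

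Mxd4 encodes a partner of Max that represses targets of Myc, and lies on chromosome 5 (34173883 to 34187720). Normal embryos had 50.5 to 119 normalized counts with a median of 86.3, and diabetic embryos 55.4 to 96.2 with a median of 66.1. Normal yolk sacs had 20.7 to 52.7 with a median of 34, and diabetic yolk sacs 28.1 to 71.5 with a median of 41.6. Embryos exceeded yolk sacs in both conditions, with a smaller gap under diabetes. The median yolk sac minus embryo difference was -1.22 in normal and -0.70 in diabetic concepti (log2 of the normalized count plus 1). Of the diabetic concepti, 17 of 17 lay above the normal median, which partly restates the choice of Mxd4 by its p. The interaction was 0.58 (SE 0.13, unadjusted p = 4.88e-05, adjusted p = 0.285), from -0.29 in embryos and 0.30 in yolk sacs. With counts summed per litter the unadjusted p was 0.00063 by edgeR.

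Kctd15, a BTB-domain protein known as an inhibitor of neural crest formation, lies on chromosome 7 (34639014 to 34656732). Its normalized counts were 221 to 601 with a median of 355 in normal and 201 to 401 with a median of 302 in diabetic embryos. They were 34 to 116 with a median of 68.8 in normal and 54.4 to 162 with a median of 91.5 in diabetic yolk sacs. The gap between embryo and yolk sac was again smaller under diabetes, with 15 of 17 diabetic concepti above the normal median of the difference. The interaction was 0.67 (SE 0.16, unadjusted p = 0.000186, adjusted p = 0.406). With counts summed per litter the unadjusted p was 0.00202 by edgeR.

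**Figure D2:**
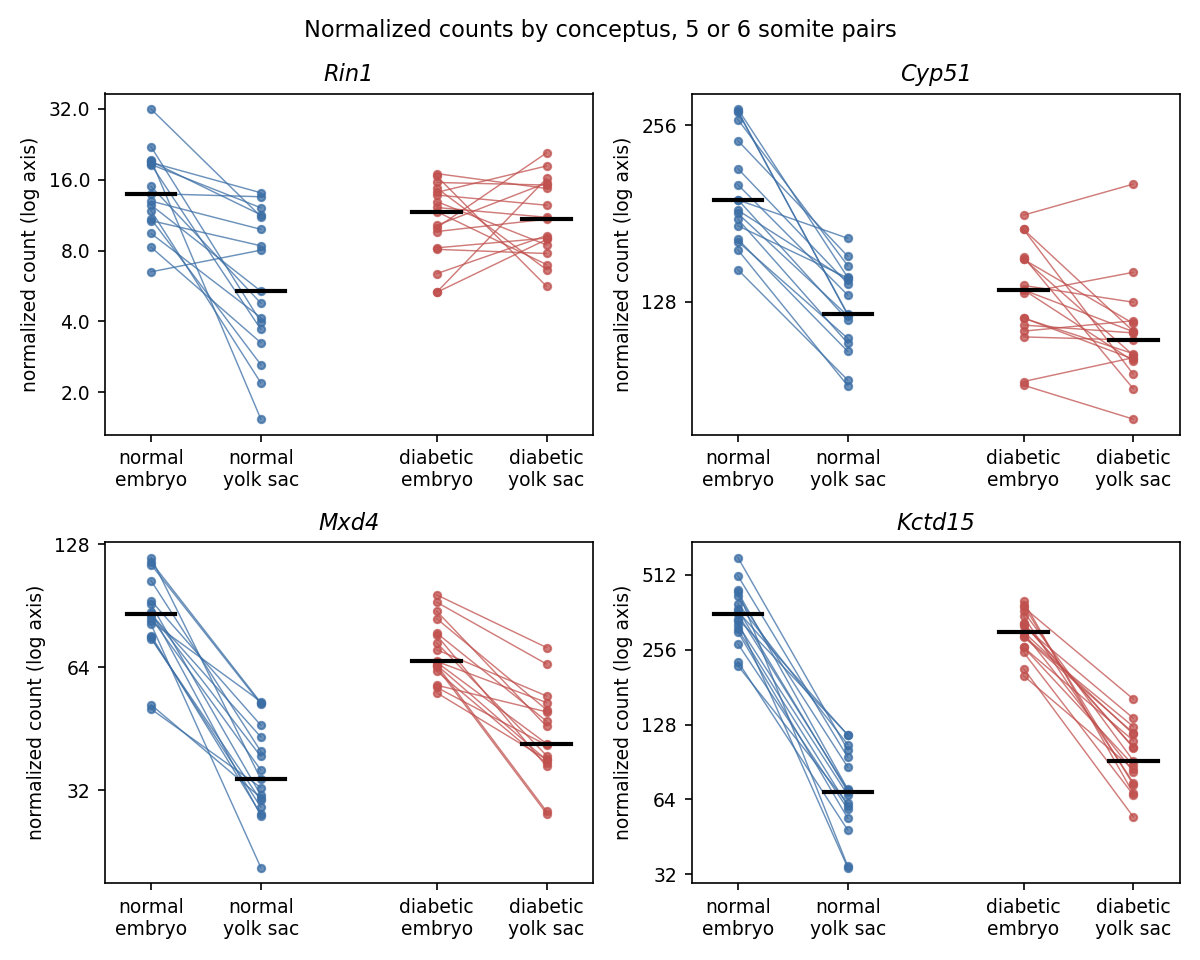
Normalized counts of Rin1, Cyp51, Mxd4 and Kctd15 in each embryo and its yolk sac, joined by a line per conceptus (17 normal in blue, 17 diabetic in red), with the group medians as black bars on a log2 axis. The embryo medians are lower in the diabetic group for all 4 genes, and the groups overlap in every tissue.

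Sall2 encodes a zinc-finger transcription factor and was largely an embryo gene, with medians of 323 and 262 normalized counts in normal and diabetic embryos against 38.3 and 37.2 in the yolk sacs. Its interaction was 0.56 (SE 0.14), from -0.39 in embryos and 0.21 in yolk sacs. Pias2, a SUMO ligase, had medians of 162 and 145 in embryos and of 126 and 137 in yolk sacs, with an interaction of 0.39 (SE 0.10). For both genes, the ranges of the diabetic and normal groups overlapped in each tissue.

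Rgs5, a regulator of G-protein signalling found in pericytes, had medians of 38.5 and 33.2 normalized counts in normal and diabetic embryos and of 23.9 and 39.8 in normal and diabetic yolk sacs. Diabetic yolk sacs reached 96.3, against 41.4 in the normal ones, but both groups began near 12, at 11.7 and 11.9. The interaction was 0.79 (SE 0.20), and here the yolk sac change of 0.70 (SE 0.20) was larger in size than the embryo change of -0.14 (SE 0.19). Rin1, which links Ras to Rab signalling, had medians of 14 and 11.7 in embryos and of 5.38 and 10.9 in yolk sacs, with an interaction of 1.13 (SE 0.29).

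The largest values among the 10 came from genes with few counts in the yolk sac. Gdpd2, a glycerophosphodiester phosphodiesterase, had medians of 20.8 and 12.8 normalized counts in normal and diabetic embryos, while 14 of 17 normal and 8 of 17 diabetic yolk sacs were at 0 and none was above 4.63. Its interaction of 2.52 (SE 0.65) rests on few counts: it was 1.73 without litter D24M15 and 1.05 in limma on log2 CPM. Npas3, a neural transcription factor, had medians of 17.5 and 13.4 in embryos and of 1.54 and 3.34 in yolk sacs, with an interaction of 1.31 (SE 0.34). Gm27231, named after its value was seen, had an interaction of -1.77 (SE 0.38, adjusted p = 0.285). It had medians of 8.08 and 19.5 in embryos and of 7.4 and 4.52 in yolk sacs, and 17 of 17 diabetic concepti lay below the normal median of the difference.

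The interactions of the cholesterol pathway were mostly on 1 side of 0. The list held 25 genes of sterol synthesis, its regulation and uptake, of which 24 passed the filter on low counts and Idi1, with group medians of 5.15 to 7.73 normalized counts, did not. A positive interaction was found for 23 of the 24, against 50.8% of all genes tested, and 16 of the 24 were positive at an unadjusted p under 0.05, against 5.13% of all genes. None was negative at that level and 0 were called. The list was drawn up with earlier results of these data known, its members share regulation and libraries, and no test over the list was made. In such tissue libraries, fewer cells of a type and less RNA per cell cannot be told apart. The median interaction was 0.37. The fitted embryo change was below 0 in 24 of 24 members, with a median of -0.34, and the yolk sac change was above 0 in 14, with a median of 0.04. Of the 24, 20 are shown by name, and those beyond Cyp51 are named after their values were seen.

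**Figure D3:**
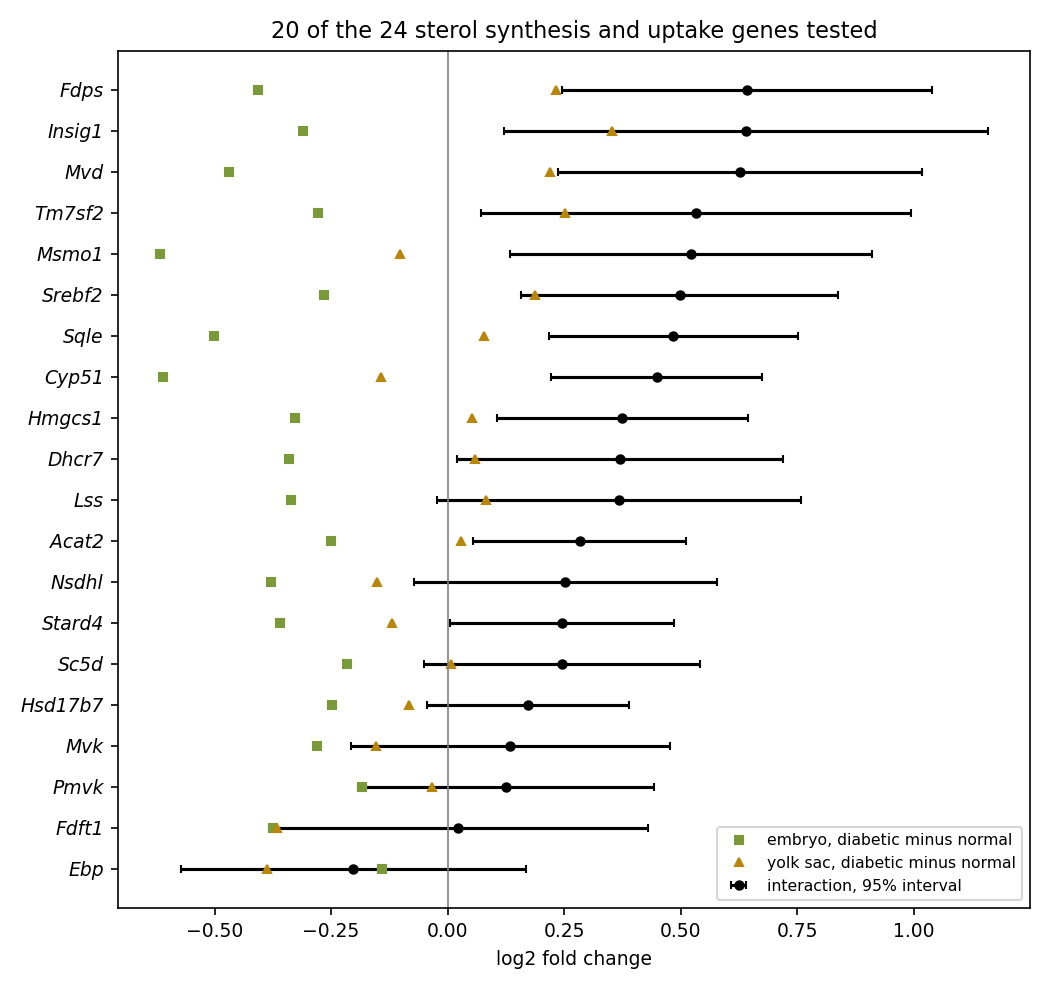
Log2 fold changes of 20 of the 24 sterol genes tested, ordered by the interaction (black, with 95% interval). Embryo changes (green squares) are all below 0, yolk sac changes (gold triangles) lie on both sides of 0, and the interaction of Ebp is the one below 0, with none called.

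Early steps of the pathway had moderate values. Hmgcs1, the synthase for HMG-CoA, had an interaction of 0.38 (SE 0.13). Normal embryos had 343 to 745 normalized counts of Hmgcs1 with a median of 555 and diabetic embryos 294 to 875 with a median of 424, while normal yolk sacs had 253 to 494 with a median of 367 and diabetic yolk sacs 248 to 826 with a median of 379. The embryo medians were further apart than those of the yolk sacs, and the groups overlapped in both tissues. Mvd, the mevalonate diphosphate decarboxylase, had 0.63 (SE 0.19) and Fdps, the farnesyl diphosphate synthase, 0.64 (SE 0.20). The kinases Mvk and Pmvk had 0.13 (SE 0.17) and 0.12 (SE 0.16), with intervals of -0.21 to 0.48 and -0.19 to 0.44.

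Among the enzymes that act on squalene and later sterols, Sqle, the squalene epoxidase, had the lowest p after Cyp51. Its normalized counts ran from 159 to 256 with a median of 203 in normal embryos and from 112 to 207 with a median of 140 in diabetic embryos. They ran from 84.4 to 129 with a median of 106 in normal and from 70.9 to 295 with a median of 98.1 in diabetic yolk sacs. Yolk sacs of both groups had similar medians, with 1 high diabetic sample, and the interaction was 0.48 (SE 0.13, unadjusted p = 0.000728, adjusted p = 0.406). With counts summed per litter the unadjusted p of Sqle was 0.00941 by edgeR. Msmo1, a sterol methyl oxidase, had 0.52 (SE 0.19) and Tm7sf2, a sterol reductase, 0.53 (SE 0.23). Fdft1, the squalene synthase, had an interaction of 0.02 (SE 0.20), with -0.38 in embryos and -0.37 in yolk sacs. Ebp, a sterol isomerase, was the exception in sign, with -0.20 (SE 0.18, interval -0.57 to 0.17).

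The regulators Srebf2 and Insig1, which senses sterols and restrains Srebf2, had interactions of 0.50 (SE 0.17) and 0.64 (SE 0.26). Stard4, a carrier of cholesterol within cells, had 0.25 (SE 0.12), with medians of 90.6 and 70.1 in embryos and of 334 and 314 in yolk sacs. Stard4 was thus more abundant in the yolk sac, and its median was lower under diabetes in both tissues.

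By litter, the mean yolk sac minus embryo difference of the 24 genes (log2 of the normalized count plus 1) ran from -0.65 to -0.06 in the 10 normal litters with a median of -0.27, and from -0.21 to 0.40 in the 9 diabetic litters with a median of 0.09. Of the diabetic litters, 8 lay above every normal litter, and the exception was D28M27, whose only conceptus is the pair with different sex labels. By conceptus the ranges overlapped, from -0.65 to 0.00 in the normal and from -0.21 to 0.43 in the diabetic group. Within the embryos, the mean level of the 24 genes had a median of 6.53 in the normal and 6.16 in the diabetic group, and within the yolk sacs 6.28 in both, on the same log2 scale. With counts summed per litter, 22 of 24 members were positive and 10 were positive at an unadjusted p under 0.05, where 3.09% of all genes were. With the litter as a random block in limma these numbers were 23 and 12, against 3.38%. Without litter N28M06, 15 members were positive at that level, against 2.73%, with a median interaction of 0.35. The median was 0.40 without conceptus D28M27C. Markers of trophoblast and decidua had either a higher median in diabetic than in normal yolk sacs or a median of 0 in both. The median of Ascl2, a transcription factor of trophoblast, was 15.8 normalized counts in normal and 53.1 in diabetic yolk sacs, with ranges of 1.23 to 244 and 1.13 to 337. Ascl2 was the only 1 of these markers tested, with an interaction of 1.01 (interval -0.41 to 2.44, unadjusted p = 0.158 by edgeR). Prl8a2, a hormone gene of the decidua, had medians of 1.54 and 10.3, and the trophoblast gene Prl3d1 was at 0 in 17 of 17 normal and 15 of 17 diabetic yolk sacs. Gcm1 had medians of 3.43 and 3.98, with highest values of 20.5 in normal and 12.1 in diabetic yolk sacs. Tpbpa was at 0 in 16 of 17 normal and 12 of 17 diabetic yolk sacs, and Prl2c2 in 17 and 13. The summed share of the 6 markers ran from 0.000247 to 0.0111% of the counts in normal and from 0.000123 to 0.0214% in diabetic yolk sacs. Its medians were 0.000734 and 0.0036%, and its part in the sterol values was not tested.

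**Figure D4:**
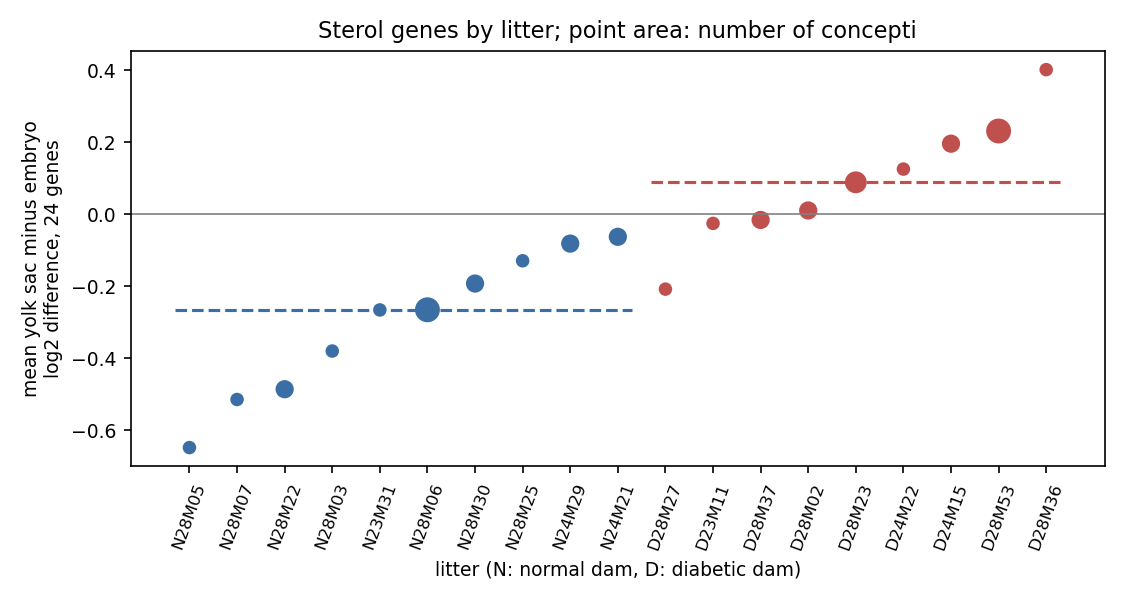
Mean yolk sac minus embryo log2 difference of the 24 sterol genes in each of 10 normal (blue) and 9 diabetic (red) litters, with point area for the number of concepti and dashed lines at the group medians of -0.27 and 0.09. All diabetic litters except D28M27 lie above the highest normal litter.

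Promoters of the list were read to show what sequence the members share. RefSeq windows of 250 bases before to 50 after the start (GRCm38.p6) were found for 17 of the 25 members. The letters CCAAT, the binding motif of the factor NF-Y, stood on either strand in 16 of these 17 and in 41.1% of all 27025 genes with a window, and the motif TCACNCCAC, a form of the sterol regulatory element, stood on either strand in Hmgcs1 alone of the list and in 1.44% of all genes. The 250 bases before the start of Hmgcs1 (chr13:119690101-119690350, plus strand) and of Cyp51 (chr5:4104698-4104947, minus strand) are shown as the window with both motifs and as that of the list gene of lowest p, with matches to either motif in capitals.
Hmgcs1: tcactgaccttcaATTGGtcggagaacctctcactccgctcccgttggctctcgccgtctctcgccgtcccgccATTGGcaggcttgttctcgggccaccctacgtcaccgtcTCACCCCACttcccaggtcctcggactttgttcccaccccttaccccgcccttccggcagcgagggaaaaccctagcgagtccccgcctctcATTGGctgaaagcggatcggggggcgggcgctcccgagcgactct
Cyp51: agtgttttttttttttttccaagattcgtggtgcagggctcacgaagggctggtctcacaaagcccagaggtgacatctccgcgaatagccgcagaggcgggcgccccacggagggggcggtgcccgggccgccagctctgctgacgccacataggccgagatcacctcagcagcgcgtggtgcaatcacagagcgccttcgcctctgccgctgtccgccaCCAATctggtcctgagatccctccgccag
A match is only the presence of these letters in the window.

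At 7 to 9 somite pairs the sterol list was less one-sided by count. The same fit in 32 concepti of that stage called 47 of 11577 genes by edgeR (0.406%) and had 18.1% at an unadjusted p under 0.05. Conceptus N28M07E of that stage had an embryo labelled male and a yolk sac labelled female. It was kept here and in the fit over both stages, and no fit was made without it. Of the sterol list, 18 of 24 members were positive with a median of 0.17. Of the 11401 genes tested at both stages, 6146 were positive at the later stage, with a median of 0.03. In the list, 5 members were positive at an unadjusted p under 0.05, where 10.1% of all genes were. None was negative at that level, where 7.99% of all genes were. The difference of the interaction between the stages was fitted over both stages. Of the 25 members in that fit, 20 had a lower interaction at the later stage and 3 of these an unadjusted p under 0.05, where 6.02% of all genes were lower at that level. The median difference was -0.17, against 0.00 over all genes. By edgeR 0 of 12183 genes were called for this difference (0.0%) and 1427 were at an unadjusted p under 0.05, with no other tool run, and a change of the sterol interaction between the stages was not shown.

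Glucose and fatty acid transporters had small interactions where counts were high. Of 22 genes, 11 passed the filter, 6 with a positive and 5 with a negative value, and 0 were called. Slc2a1, the glucose carrier Glut1, had 1637 to 2652 normalized counts with a median of 2177 in normal embryos and 1432 to 2868 with a median of 2107 in diabetic embryos. In yolk sacs it had 1523 to 3453 with a median of 2463 in the normal and 1626 to 3221 with a median of 2271 in the diabetic group. The groups overlapped nearly throughout, and the interaction of -0.07 had an interval of -0.33 to 0.19. Slc2a3, the carrier Glut3, had medians of 2415 and 2439 in embryos and of 8479 and 7924 in yolk sacs, with an interaction of -0.03 and an interval of -0.28 to 0.23. Slc2a2, the low-affinity carrier Glut2, was found mainly in the yolk sac, with medians of 1245 and 1076 against 17.2 and 10.6 in embryos. Its interval of -0.81 to 0.71 was wide, its embryo counts being few, and its sign changed between fits. Slc2a4, the insulin-responsive carrier Glut4, had medians of 21.6 and 10.3 in normal and diabetic embryos and of 1.31 and 1.72 in the yolk sacs, with an interaction of 0.71 (SE 0.39, interval -0.07 to 1.5). Cpt1c, a brain form of carnitine palmitoyltransferase, had the lowest p of the list, with 0.55 (SE 0.23, unadjusted p = 0.0203, adjusted p = 0.504). With counts summed per litter its unadjusted p was 0.0713 by edgeR.

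Glycolysis and hypoxia genes had more positive than negative values. Of 18 glycolysis genes tested, 13 were positive with a median of 0.16, where 50.8% of all genes were positive. Hk2, Pfkl and Aldoc were positive and Eno1 negative at an unadjusted p under 0.05, against 5.13% positive and 3.88% negative of all genes. Without litter N28M06, 1 glycolysis gene was positive at that level, with a list median of 0.07. Aldoc, an aldolase, had 0.98 (SE 0.36), and Eno1, an enolase, -0.51 (SE 0.19). Pgk1 had -0.99 (SE 0.51) and Gapdh -0.60 (SE 0.32), both with an unadjusted p over 0.05. Of 16 hypoxia-response genes, 12 were positive with a median of 0.18, and 5 were positive at that level, against 5.13% of all genes: Adm, Ankrd37, Pfkfb3, Ndrg1 and P4ha2. This count rested on single litters, being 0 without the diabetic litter D28M53, 2 without N28M06 and 2 with counts summed per litter. Adm, the vasodilator adrenomedullin, had 1.42 (SE 0.45), from -0.65 in embryos and 1.21 in yolk sacs. These 5 genes had yolk sac changes of 0.29 to 1.21, and embryo changes of -0.65 to 0.05. None of the genes in either list was called, and they are named here after their values were seen.

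Stress genes did not share a direction. Of 20 genes of the unfolded protein and integrated stress responses 9 were positive, with Ddit4 at 0.96 (SE 0.35) and the chaperones Hsp90b1 and Pdia4 at -0.48 (SE 0.18) and -0.63 (SE 0.28). Of 13 heat shock and cold-inducible genes 9 were negative, and Hspa8, the constitutive chaperone, had -0.87 (SE 0.25), from 0.51 in embryos and -0.47 in yolk sacs, while Hspb1 had 0.91 (SE 0.36). Immediate early genes pointed both ways, with Fosb at -1.69 (SE 0.68) and Junb at 0.74 (SE 0.28). The 18 antioxidant genes had a median of -0.08 and none at an unadjusted p under 0.05. Of 13 p53 targets 7 were positive, and Cdkn1a, the cell cycle inhibitor, had -0.68 (SE 0.26). At an unadjusted p under 0.05 by edgeR, 1 gene of the unfolded protein and integrated stress list was positive and 3 negative. These counts were 1 and 2 for the heat shock list, 2 and 2 for immediate early genes and 1 and 1 for p53 targets. Of all genes, 5.13% were positive and 3.88% negative at that level. None was called, and the genes of this paragraph are named after their values were seen.

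Genes that define the 2 tissues had interactions on both sides of 0. The 10 visceral endoderm markers had a median of -0.10 and the 16 apolipoproteins and serum proteins of -0.08, with none at an unadjusted p under 0.05. The visceral endoderm share of embryo libraries had medians of 0.0305% under normal and 0.0231% under diabetic conditions. On the log2 scale the diabetic mean was lower by 0.15 over 17 and 17 embryos (-5.19 against -5.04, permutation p = 0.611) and by 0.38 over litter means (exact permutation p = 0.215, both two-sided), which the tests did not separate from 0. In the fit of normalized counts the embryo change of these 10 markers pointed the other way, with a median of 0.18 and 1 of 10 negative. Embryo cell type markers had more positive than negative interactions, as the sterol list had. Of 6 neuroectoderm markers 5 were positive, with a median of 0.23, and the embryo change was negative in 5, with a median of -0.26. Of 5 paraxial mesoderm markers tested 4 were positive, with a median of 0.28 and an embryo median of -0.12. Of 6 heart markers 5 were positive, with a median of 0.10 and an embryo median of -0.21, but the heart median was -0.13 with counts summed per litter. With litters left out in turn, the heart median lay between -0.24 (without D24M15) and 0.42 (without N28M05), the neuroectoderm median between 0.05 (without N28M06) and 0.56 (without N28M30), and the paraxial mesoderm median between 0.15 (without N28M06) and 0.63 (without N24M21). The part of these markers in the sterol values was not tested. The 5 erythroid markers had a median interaction of 0.02, and the 8 endothelial markers of 0.22, with Esam at 0.50 (SE 0.17). The 19 neural tube closure genes had a median of 0.05, with 10 positive, and the 27 tested genes with a Hox symbol of -0.09, with 1 positive and 4 negative at an unadjusted p under 0.05, against 5.13% and 3.88% of all genes. The 21 endocytosis and lysosome genes had a median of -0.07 and 14 negative members. The 16 IGF and insulin signalling genes had a median of 0.16, and the 19 imprinted genes of 0.09.

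RNA classes that mostly lack poly(A) tails had interactions mainly below 0, with none called. Short structured RNAs, such as small nuclear and nucleolar RNAs, had a median interaction of -0.47 over 29 genes tested, of which 26 were negative and 5 negative at an unadjusted p under 0.05, against 3.88% of all genes. That count of 5 was 3 without conceptus N28M06A, 1 without litter N28M06, 1 without N28M30 and 9 without N24M21. It was 2 without D28M23, 2 without N28M25 and 2 with counts summed per litter. It was 3 without each of D28M02, D28M36, N23M31 and N28M03, and 3 in limma. The median was -0.32 without N28M06. The median change was 0.96 in embryos and 0.35 in yolk sacs. Their summed share of counts had medians of 0.0658% in normal and 0.111% in diabetic embryos, against 0.0710% and 0.0830% in yolk sacs, with overlapping ranges. Replication histones had a median of -0.20 over 23 genes, with 0.67 in embryos and 0.27 in yolk sacs, and that median lay between -0.34 without litter N24M21 and -0.06 without N28M06. The mitochondrial ribosomal RNA mt-Rnr2 had medians of 23671 and 49143 normalized counts in normal and diabetic embryos and of 68764 and 70984 in yolk sacs, with an interaction of -0.88 (SE 0.33). The gene model Gm42418 took a median of 3.11% of counts in normal and 6.55% in diabetic embryos, and 7.4% and 8.5% in yolk sacs, with an interaction of -0.79 (SE 0.36), or of -0.41 without litter N28M06. These shares moved with the same contrast as the sterol genes and in the opposite direction, and their part in the sterol values was not tested. Outside these RNA classes, cytosolic ribosomal protein genes had a median of -0.11, with 87 of 111 negative, where 50.8% of all genes were positive. At an unadjusted p under 0.05 by edgeR, 0 were positive and 8 negative, against 5.13% and 3.88% of all genes. The 369 listed took 7.63% of the counts in the yolk sac of N28M06A, against medians of 3.65% in normal and 3.41% in diabetic yolk sacs. No value of this list without that conceptus is given. Respiratory chain subunits had a median of -0.08, with 66 of 89 negative, and 1 was positive and 0 negative at that level.

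**Figure D5:**
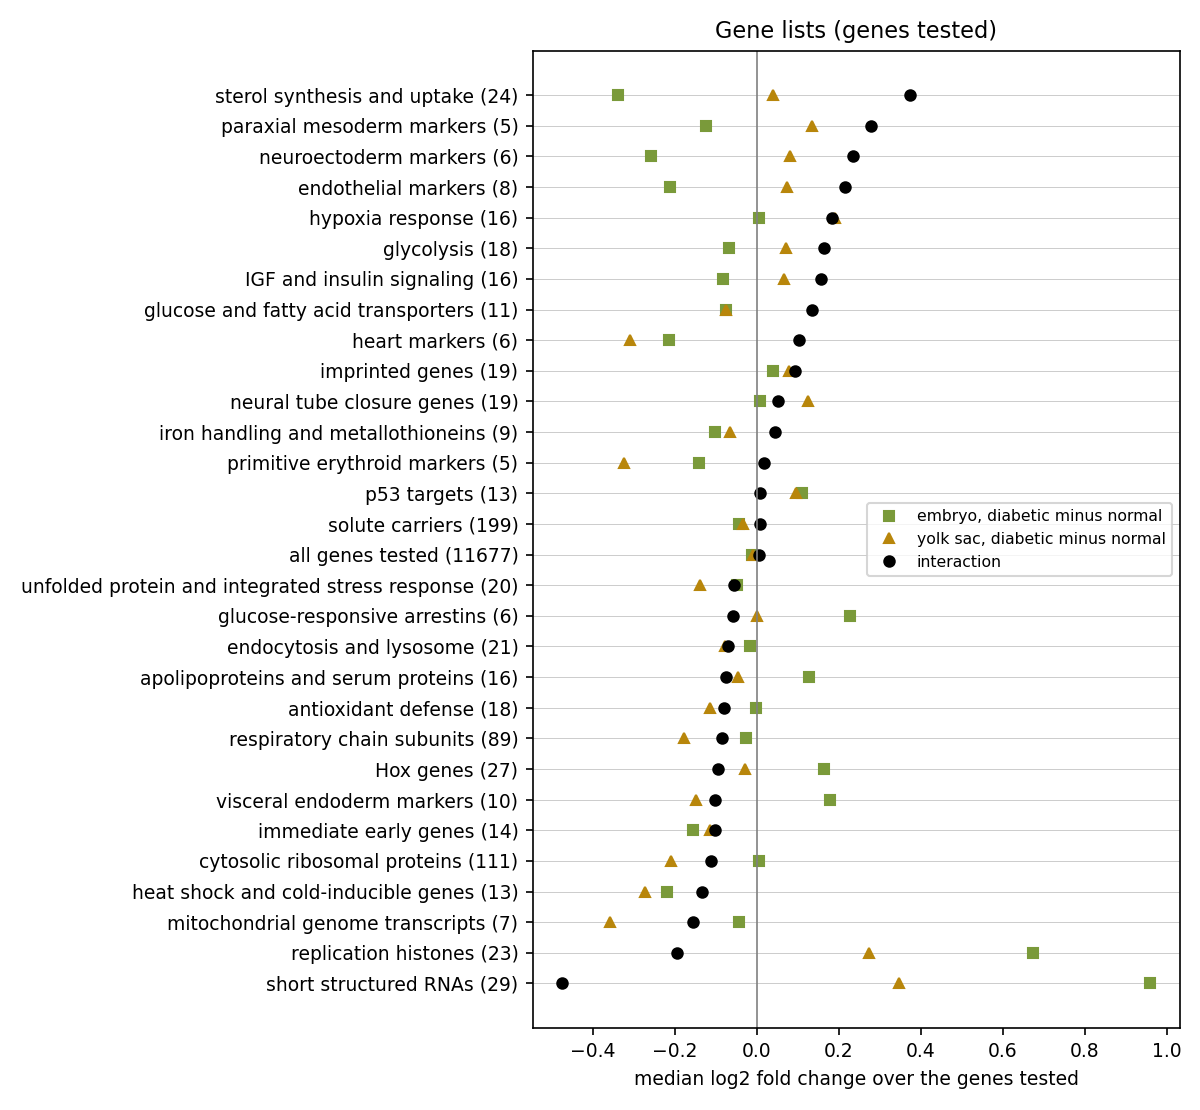
Median log2 fold change of each gene list with at least 5 genes tested, ordered by the interaction (black), with embryo (green squares) and yolk sac (gold triangles) changes and the number of genes tested in brackets. The sterol list lies at 0.37 and the short structured RNAs at -0.47, against 0.00 for all genes.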

How the data were processed

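The deposited values are raw UMI counts per gene that the authors made from QuantSeq reads. How identifiers were collapsed is not given in the sources used here. The submitters' processing notes name STAR, HTSeq and mm10, without versions. Symbols and coordinates came from the deposit and GENCODE M21. Groups came from the labels. TMM normalization, filterByExpr (minimum count 10) and the quasi-likelihood test of edgeR 4.0.16 (R 4.3.3) were applied to 68 libraries with conceptus, tissue and tissue by condition as terms, and p-values were adjusted by Benjamini-Hochberg. SEs were derived from the fold change and its F statistic. The conceptus block treats littermates as independent, and the litter correlation in limma was 0.221. Changes within a tissue came from a fit of the 4 groups without the block and were not tested. Normalized counts used size factors of DESeq2 1.42.0, and limma was version 3.58.1. The code was tested on counts simulated without conceptus or litter effects. That test does not cover the dependence among littermates. Embryo and yolk sac were paired by the conceptus in their titles, and deviations from group means correlated at a median of 0.105 (34 pairs).

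Members, lists and tests were chosen with earlier results of these data known. The rule named called genes, otherwise the 10 of lowest unadjusted p without Gm or Rik models, and tested transporters. The fit at 7 to 9 somite pairs, the comparison of stages and the fits without concepti N28M06A and D28M02G were added after seeing the data. Some members of these lists count in the totals and are not reported here by name.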

Additional observations from a re-analysis of the deposited data

How the results depend on the processing

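The count of 0 called genes was the same under RLE size factors, DESeq2, a mean count of at least 10, no replicate block (895 genes at an unadjusted p under 0.05), counts summed per litter (601), the litter as a random block in limma, somite number and sex as covariates, the title number as a covariate (1231), the libraries of both stages in 1 fit, added duplicates, and without each of the concepti D28M27C, N28M06A and D28M02G. Without a filter on low counts, 66 of 29947 genes were called, 35 higher and 31 lower in diabetic yolk sac relative to embryo. Of these 60 had been tested with the filter, and they included Mvd, Kctd15, Rin1, Rgs5 and Gdpd2. With the filter, the unadjusted p of the 60 ran from 4.13e-05 to 0.244 by edgeR. The smallest adjusted p was 1.55e-12 without the filter and 0.285 with it, both by edgeR. The calls without the filter are therefore no separate support for the genes named. The cause was not tested. Leaving out each of 19 litters gave 0 to 1 calls, 0 higher and 0 to 1 lower, the call being Gm27231 without litter N28M30 (-2.11, adjusted p = 0.027 by edgeR).

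Directions of the 10 genes of lowest p other than Gm and Rik models held in all 340 alternative values. These genes were chosen by p in the same libraries, so their signs were likely to hold, and this is no separate support. Near 0, signs changed for Fdft1 (-0.022 summed per litter, -0.051 with somite number and sex, -0.042 to 0.13 with a litter left out), Slc2a2 (0.18 in DESeq2, 0.19 summed per litter, 0.32 in limma, 0.066 with somite number and sex, 0.016 without D28M02G, 0.034 without D28M02G and N28M06A, -0.30 to 0.65 with a litter left out), Slc2a3 (0.0044 with somite number and sex, -0.19 to 0.067 with a litter left out), Slc2a8 (0.062 with somite number and sex, 0.010 without D28M27C, -0.22 to 0.18 with a litter left out) and Cd36 (-0.011 to 0.28 with a litter left out). The median of the sterol list lay between 0.34 and 0.43 over all alternatives. Ratios of normalized counts under TMM CPM and size factors within a tissue stayed within 1 SD in 40 of 40 comparisons. Low counts limit genes such as Gdpd2 and Npas3 in yolk sac.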
